A study of Arabidopsis thaliana with 48 samples.

Results

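Seedlings of Arabidopsis thaliana labelled CCA1OX were compared with seedlings of the accession Col in the dark, 280 min into the day, a time at which the hypocotyls of both lines were labelled as growing. The comparison took every array with those labels, 6 of CCA1OX and 6 of Col, 12 of the 48 arrays of the series. The choice used the labels alone and no measured value. CCA1OX is a line that overexpresses CCA1. The labels name neither the promoter nor the transformed line, and Col is the accession used as its control. Expression was read on Affymetrix ATH1 arrays from total RNA of pooled seedlings grown on medium with sucrose. After short days the seedlings entered cycles of 160 min of light and 320 min of dark at dawn of day 4. The 280 min samples of both lines were therefore taken 120 min into the first dark period of a day, on days 4, 5 and 6 after germination in each of 2 time courses. Replicates 1 to 3 of a line are those days of the first time course, and replicates 4 to 6 those of the second. Col and CCA1OX were also sampled in the light at 120 and 1080 min and in the dark at 1240 min (5 arrays per line and time). Of these, only CCA1OX at 1240 min was labelled growing, so at dark 280 min the lines differ in genotype without a difference in the growth label. A double mutant labelled pif4 pil5, not growing at dark 280 min, gave another 6 arrays.

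CCA1 is a MYB-type transcription factor that acts in the morning within the plant circadian clock. It represses evening genes, and plants that overexpress it lose rhythms of gene expression. The clock, together with light, sets the hours at which the hypocotyl elongates, through phytochrome-interacting factors that switch on auxin, shade-response and cell wall genes in the dark.

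Values are log2 expression values, so a difference of 1 is a factor of 2, and a log2 change is the CCA1OX mean minus the Col mean. RCA, the Rubisco activase gene of green tissue, lay between 12.35 and 12.57 in the CCA1OX arrays, and between 12.44 and 12.65 in the Col arrays other than replicate 4, which had 10.96. The root gene PYK10, a beta-glucosidase, lay between 11.78 and 12.28 in CCA1OX and between 11.83 and 12.09 in Col. Both genes thus gave a high signal in all 12 arrays. They do not measure the share of each tissue in the samples. The root hair genes EXPA7 and EXPA18, lower in CCA1OX in 6 of 6 pairs without passing the test, are given below. The CCA1 probe set carries no name here, so the line was not checked at its own gene.

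Some arrays stood apart from the rest of their group. HYH, a light-induced bZIP factor gene, stood at 5.76 in CCA1OX replicate 2, against 1.86 to 2.46 in the other CCA1OX arrays. In Col it stood at 4.82 in replicate 3, against 2.34 to 3.46 in the others. Col replicate 4 had the low RCA value given above, and also 10.01 for the antenna gene LHCB4.2, which lay between 11.75 and 12.19 in the other Col arrays. The lowest correlation within the groups, 0.945, was that between Col replicates 3 and 4. AT3G52740, listed as BIC1, a gene induced by light through cryptochromes, stood at 5.44 in CCA1OX replicate 2, against 2.76 to 3.20 in the other CCA1OX arrays. It stood at 5.42 in Col replicate 3, against 2.44 to 3.83 in the other Col arrays. Its means in the light groups of both lines lay between 5.14 and 5.51, so both arrays, labelled dark, were at the level of the light groups. Whether these samples were exposed to light or exchanged was not tested, and it bears on their values of every gene below. None was dropped or relabelled. Counts are also given for 45 arrays, a fit without Col replicate 3, CCA1OX replicate 2 and Col light 1080 replicate 3. The labels do not set these arrays apart, and Col replicate 4 stayed in that fit. What sets the light array apart is not shown here. Leaving it out alone raised the count of calls at dark 280 min from 28 to 39. Array batch held equal numbers of the lines, since each of the 5 batches at this time had arrays of both lines.

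At dark 280 min, 28 of 22746 probe sets (0.123%) passed an adjusted p of 0.05, with 24 higher in CCA1OX (0.106%) and 4 lower (0.0176%). Of the 28, 19 carried the name of a single gene, 17 higher and 2 lower, and 9 had no name. Their log2 changes ran in size from 0.43 to 5.00 with a median of 1.13, and 16 were changes of 2-fold or more. The median over all probe sets was -0.0022. Of the 28, 24 lay in the called direction in 6 of 6 pairs of arrays from the same time course and day, and 4 in 5 of 6. Among all probe sets 5.48% had the same sign in 6 pairs. In 16 of the 28 the values of the lines did not overlap, as in 86 probe sets in all (0.378%). RNA of pooled whole seedlings was measured, so fewer cells of a type and less RNA per cell cannot be told apart in any of these differences.

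The pairs share a day, a time course and an array batch. With time course and day as a block over the 42 arrays of both lines, the count was 86 probe sets (0.378%), 65 higher (0.286%) and 21 lower (0.0923%). These included all 28, and each block also held arrays of other times. With 45 arrays and no block the count was 43, of which 19 were among the 28. A single array also moved it: without Col replicate 5 the count was 14, without Col replicate 6 it was 16 and without CCA1OX replicate 3 it was 16. With the 12 arrays fitted alone it was 4. With the block on these 12 arrays, where the blocks are the 6 pairs, it was 5, 1 higher and 4 lower. Of these 5, 4 were among the 28.

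**Figure D1:**
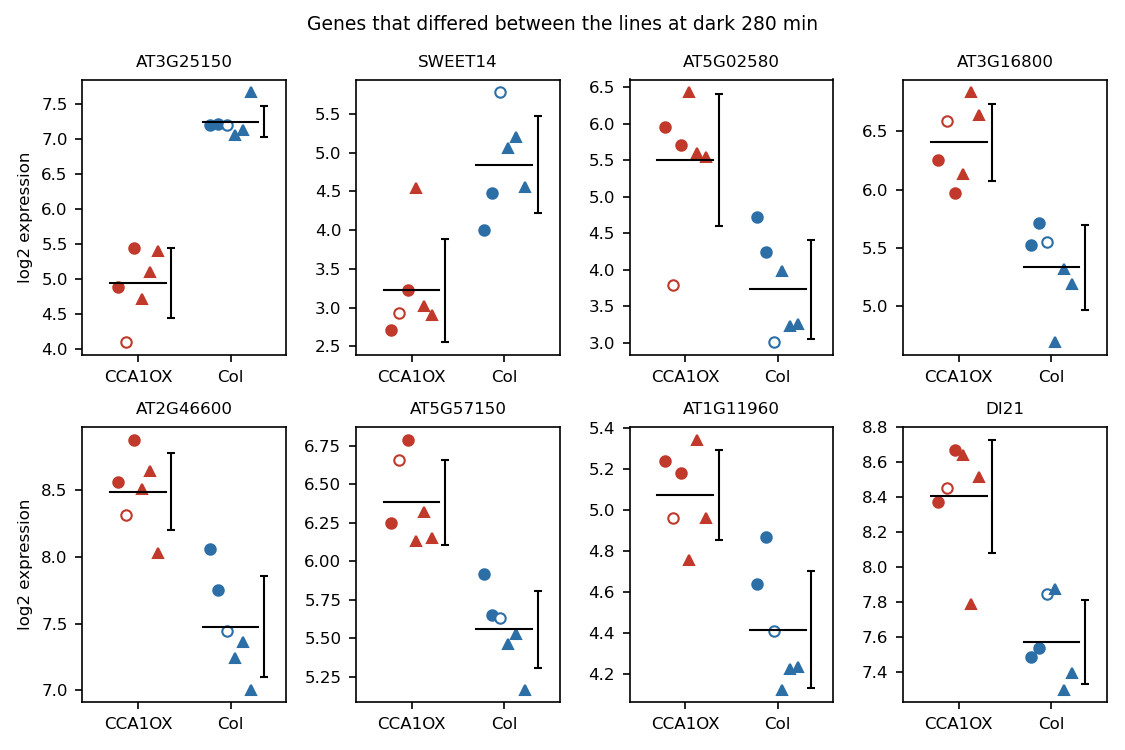
Log2 expression (vertical axes, each panel on its own scale) of 8 genes that passed the test, in the 6 CCA1OX arrays (left) and the 6 Col arrays (right) at dark 280 min. Circles are replicates 1 to 3 and triangles replicates 4 to 6, open symbols are CCA1OX replicate 2 and Col replicate 3, lines are means and bars SD. AT3G25150, AT3G16800 and AT5G57150 did not overlap between the lines, and the single low CCA1OX value of AT5G02580, 3.79, was replicate 2.

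The called gene with the largest fall was AT3G25150, for an RNA-binding protein of the nuclear transport factor type. It stood at 4.88, 4.09, 5.44, 4.71, 5.10 and 5.40 in CCA1OX replicates 1 to 6, against 7.20, 7.22, 7.20, 7.05, 7.13 and 7.67 in the Col replicates. Every CCA1OX array was below every Col array by more than 1 log2 unit, and Col varied less (SD 0.22) than CCA1OX (SD 0.50). The log2 change was -2.31 ± 0.16 (SE, adjusted p = 2.74e-13). This gene was lower in CCA1OX at the other 3 times as well, by changes of -2.59, -2.55 and -2.05 at light 120, light 1080 and dark 1240 min, all past the threshold. In pif4 pil5 at dark 280 min it stood at 7.07 ± 0.30 (SD, n = 6). All pif4 pil5 arrays lay in array batch 5, which held 1 of the 6 Col arrays, replicate 6, so that line and batch can hardly be told apart in any pif4 pil5 value given here.

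SWEET14, a plasma membrane sugar transporter of the SWEET family, was the other called gene with a name that was lower. It stood at 2.71, 2.93, 3.22, 4.55, 3.02 and 2.90 in the CCA1OX replicates, against 4.00, 4.48, 5.79, 5.06, 5.21 and 4.56 in the Col replicates. CCA1OX replicate 4 lay within the range of Col and the other 5 below it. The log2 change was -1.63 ± 0.35 (adjusted p = 0.0352). The call held without CCA1OX replicate 4 (adjusted p = 0.00501) but was lost when any 1 of 9 other arrays was left out, where the adjusted p lay between 0.0576 and 0.105, and its value with 45 arrays was 0.164. Its changes at light 120, light 1080 and dark 1240 min, -1.48, -1.22 and -0.99, did not pass the threshold.

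Of the other 13 named SWEET genes none passed the test, and the family's median change was -0.07. Of these, 2 passed with time course and day as a block, SWEET16 and SWEET17, which carry sugars across the vacuolar membrane. In that fit 0.286% of all probe sets were called higher. SWEET16 stood at 5.72, 5.41, 5.95, 4.40, 5.48 and 5.67 in CCA1OX, against 4.40, 5.00, 5.14, 4.00, 4.17 and 4.73 in Col. It was higher in CCA1OX in every pair although the groups overlapped, with a log2 change of 0.86 (adjusted p = 0.0143 with the block and 0.474 without). SWEET17 had 6.36, 7.35, 7.43, 5.50, 6.96 and 6.87 in CCA1OX, against 5.71, 6.47, 6.68, 4.19, 6.14 and 6.09 in Col. The day 4 arrays of the second time course, replicate 4 of each line, were lowest for both genes, so the difference was clearer within pairs than between groups. The change of SWEET17 was 0.87 (adjusted p = 0.0246 with the block and 0.536 without), and 0.53 without Col replicate 4. SWEET3 was higher in 6 of 6 pairs by 1.16, with an adjusted p of 0.0588 in the blocked fit. Among all probe sets 2.49% were higher in 6 of 6 pairs.

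The remaining lower calls had no gene name. Probe set 248237_at stood between 2.97 and 3.64 in CCA1OX and between 4.42 and 5.14 in Col, a log2 change of -1.44 ± 0.16 (adjusted p = 1.38e-07) that was lower at all 4 times. Probe set 260753_at stood between 2.50 and 2.91 in CCA1OX and between 3.52 and 5.07 in Col, a change of -1.55 ± 0.24 (adjusted p = 7.04e-04). The CCA1OX values of both lay below the median of all probe set means, 4.70, so these are low signals.

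The largest difference at dark 280 min was that of the unnamed probe set 266719_at. It stood at 9.16, 9.78, 9.75, 9.17, 9.95 and 10.24 in CCA1OX, against 3.08, 4.81, 7.11, 2.89, 5.35 and 4.79 in Col. CCA1OX was uniformly high (SD 0.43), whereas Col varied widely (SD 1.56), with its highest value in replicate 3. The log2 change was 5.00 ± 0.47 (adjusted p = 1.69e-09), and 5.47 with 45 arrays. Another unnamed probe set, 259417_at, stood between 6.34 and 8.00 in CCA1OX and between 3.46 and 5.68 in Col, a change of 2.34 ± 0.42 (adjusted p = 0.00368).

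AT3G16800, a protein phosphatase of the 2C class, stood at 6.26, 6.59, 5.97, 6.13, 6.84 and 6.64 in CCA1OX, against 5.53, 5.72, 5.55, 4.69, 5.32 and 5.19 in Col. The lowest CCA1OX value exceeded the highest Col value. Its log2 change was 1.07 ± 0.19 (adjusted p = 0.0034). It was also the single member of the 28 called between pif4 pil5 and the same Col arrays, in the other direction, with 4.58 ± 0.40 (SD, n = 6) in pif4 pil5 and a log2 change of -0.75 (adjusted p = 0.0486). The Col array of the same batch had 5.19.

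AT2G46600, which encodes a calcium-binding protein with an EF-hand, stood at 8.56, 8.32, 8.88, 8.51, 8.64 and 8.03 in CCA1OX, against 8.06, 7.75, 7.44, 7.24, 7.37 and 7.00 in Col. CCA1OX replicate 6 and Col replicate 1 overlapped, and each pair was higher in CCA1OX. The change was 1.01 ± 0.21 (adjusted p = 0.0223), lost when any 1 of 6 arrays was left out (adjusted p up to 0.0817, without Col replicate 6). AT5G57150, a transcription factor of the basic helix-loop-helix class, stood at 6.25, 6.66, 6.79, 6.13, 6.32 and 6.15 in CCA1OX, against 5.92, 5.65, 5.63, 5.46, 5.53 and 5.16 in Col. The groups did not overlap, and the change was 0.82 ± 0.16 (adjusted p = 0.0117). Without CCA1OX replicate 3 its adjusted p was 0.0618, and without Col replicate 6 it was 0.0576. It was higher in CCA1OX at all 4 times.

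DI21, a gene named for its induction by drought, stood at 8.37, 8.45, 8.67, 8.64, 7.78 and 8.52 in CCA1OX, against 7.48, 7.53, 7.85, 7.88, 7.29 and 7.39 in Col. Only CCA1OX replicate 5 lay within the range of Col. The change was 0.83 ± 0.18 (adjusted p = 0.0357), it was called at all 4 times, and at dark 280 min leaving out any 1 of 9 arrays ended the call (adjusted p up to 0.112, without CCA1OX replicate 3). AT1G11960, of the ERD and OSCA family of membrane channels, stood between 4.76 and 5.34 in CCA1OX and between 4.12 and 4.86 in Col. It rose by 0.66 ± 0.11 (adjusted p = 0.00254) and kept its call whichever single array was left out. AT1G20030, a thaumatin-like protein gene, rose by 0.94 ± 0.20 (adjusted p = 0.0346), a call lost when any 1 of 7 arrays was left out (adjusted p up to 0.112, without CCA1OX replicate 5). AT4G07820, of the family of CAP proteins to which PR-1 belongs, had 2.76, 4.91, 3.60, 2.95, 3.62 and 5.74 in CCA1OX, against 2.85, 2.25, 2.52, 2.57, 2.42 and 2.54 in Col. The CCA1OX arrays were scattered (SD 1.16) and replicate 1 was not above its Col partner, and the widest gaps were those of pairs 2 and 6. The change was 1.40 ± 0.31 (adjusted p = 0.0401), and leaving out any 1 of 10 arrays ended the call (adjusted p up to 0.166, without CCA1OX replicate 6).

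Enzyme genes that rose included AT2G39400, an alpha/beta hydrolase, ATSBT5.2, a subtilisin-type protease, and AT3G11180, an oxygenase that hydroxylates jasmonate. AT2G39400 stood between 5.42 and 6.45 in CCA1OX and between 3.77 and 5.54 in Col, a change of 1.19 ± 0.26 (adjusted p = 0.0346). ATSBT5.2 stood between 6.11 and 6.47 in CCA1OX and between 5.26 and 6.21 in Col, a change of 0.66 ± 0.14 (adjusted p = 0.0379). AT3G11180 gave the smallest called change, 0.43 ± 0.09 (adjusted p = 0.0346), between levels of 2.22 to 2.88 in CCA1OX and of 1.88 to 2.09 in Col. These are among the dimmest values of the arrays, where the lowest in the table was 1.24. Each of these calls could be lost by leaving out 1 array. The adjusted p reached 0.138 for AT2G39400 and 0.139 for ATSBT5.2, both without Col replicate 4, and 0.168 for AT3G11180 without CCA1OX replicate 5.

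AT5G02580 had the highest change among the called genes with a name, with 5.95, 3.79, 5.71, 6.43, 5.60 and 5.55 in CCA1OX, against 4.72, 4.24, 3.01, 3.98, 3.23 and 3.26 in Col. All CCA1OX arrays but replicate 2 lay above all Col arrays, and replicate 2 was the array with high HYH. The change was 1.77 ± 0.32 (adjusted p = 0.0041), and 1.96 (adjusted p = 2.44e-04) with 45 arrays. It was also called at dark 1240 min (1.80), while its changes at light 120 and 1080 min were 0.09 and 0.18. The pseudogene AT1G43590 rose by 0.95 ± 0.16 (adjusted p = 0.00231), between 3.18 and 3.97 in CCA1OX and between 2.47 and 2.94 in Col. The other called named genes rose by 0.58 to 0.91. They were AT1G26730 of the EXS-domain family (0.58), MPC, named for the C-terminal domain of poly(A)-binding proteins (0.64), the glycine-rich protein gene AT4G30450 (0.71), AT5G15190 (0.90) and AT1G53450 (0.91). Leaving out 1 array ended these calls too, any 1 of 9 arrays for AT4G30450, of 8 for AT1G26730, of 8 for AT1G53450, of 5 for MPC and of 4 for AT5G15190. The adjusted p then reached 0.118 for AT1G26730 without CCA1OX replicate 3, 0.111 for AT4G30450 without CCA1OX replicate 5 and 0.159 for AT1G53450 without Col replicate 6. Without Col replicate 5 it was 0.0736 for MPC and 0.0827 for AT5G15190.

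**Figure D2:**
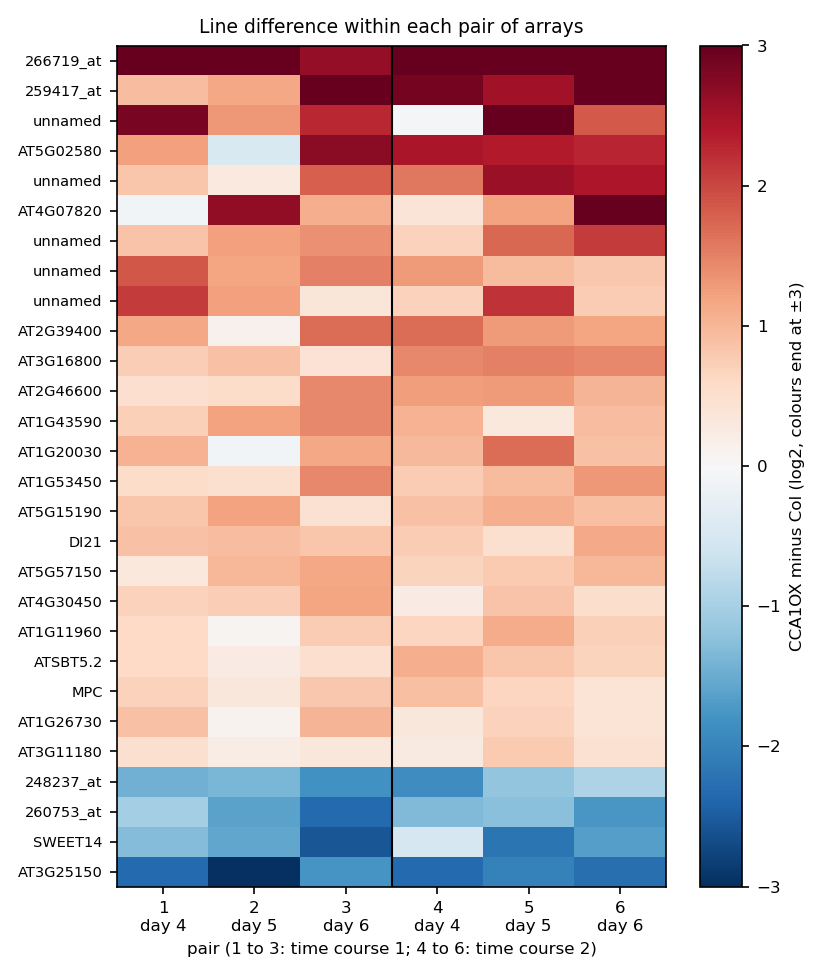
CCA1OX minus Col (log2, colour) within each of the 6 pairs of arrays from the same time course and day (columns), for the 28 called probe sets (rows, ordered by the difference of the group means). Red is higher in CCA1OX and blue lower, and 24 of the 28 rows have 1 colour throughout.

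Within single pairs, between 26 and 28 of the 28 lay in the called direction. All 28 also did so in each time course alone, with a median change of 0.98 in the first and 1.20 in the second in the called direction, and 16 were larger in the second. By day, the median was 0.89 on day 4, 1.01 on day 5 and 1.21 on day 6. The members were called on these same arrays, so these shares describe the calls and are no test of them. For these lines the campaigns of arrays are the time courses. The second campaign also holds all pif4 pil5 arrays, which come from both time courses. Fitted alone, the 24 arrays of the first campaign gave 5 calls and those of the second 45.

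The block for time course and day, over the 42 arrays of both lines, added 58 probe sets. Of these, 25 had a single gene, 21 higher and 4 lower. The lowest adjusted p among these 25 was that of AT2G41480, a peroxidase gene, at 4.78, 4.72, 5.26, 3.59, 5.09 and 5.36 in CCA1OX, against 3.37, 3.79, 4.15, 3.19, 3.10 and 3.40 in Col. Both lines were at their lowest or near it in replicate 4, and CCA1OX was higher in 6 of 6 pairs. It was 2.46-fold higher in CCA1OX, with an adjusted p of 2.91e-05 in the blocked fit and 0.0534 without the block. AT1G30760, an oxidase of the berberine bridge enzyme family, was higher by 1.44 (adjusted p = 0.0236 with the block), although pair 4 went the other way, with 4.74 in CCA1OX and 4.88 in Col. ATPMEPCRD, a pectin methylesterase gene of the cell wall, was higher by 1.57 (adjusted p = 0.0467 with the block). It ranged from 6.78 to 9.41 in CCA1OX and from 4.57 to 8.72 in Col. AT1G72140, a transporter of the nitrate and peptide family, was higher by 1.16 (adjusted p = 0.0246 with the block). The lower genes were AT1G23130 (-1.76), AT4G13840 (-1.06), AT5G10850 (-0.60) and AT4G35850 (-0.54), each lower in 6 of 6 pairs.

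The clock sets evening genes and their outputs, and few of these genes carry a name on the array here. Of 276 genes on 19 lists of pathways, 59 had a named probe set, and none of the 59 passed the test at dark 280 min (0), with or without the block, against 0.123% and 0.378% of all probe sets. GI, an evening clock gene that CCA1 is known to repress, was the single one of 11 evening genes measured. It stood at 7.11, 7.57, 6.56, 7.30, 6.95 and 6.53 in CCA1OX, against 7.09, 5.05, 8.24, 6.51, 4.27 and 3.85 in Col. CCA1OX stayed within about 1 log2 unit, whereas Col spread over more than 4, with the day 4 arrays and replicate 3 high. The difference, 1.17 ± 0.60, did not pass (adjusted p = 0.696). At dark 1240 min GI averaged 6.37 ± 0.31 in CCA1OX and 3.52 ± 0.35 in Col (SD, n = 5 each), a change of 2.85 (adjusted p = 0.016).

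COR27, a night-phased gene regulated by cold and by the clock, had 2.56, 2.13, 5.44, 4.40, 4.42 and 5.44 in CCA1OX, against 2.63, 2.42, 2.76, 4.38, 2.25 and 2.58 in Col. In CCA1OX 4 arrays were high and 2 low, and in Col only replicate 4 was high. Its difference, 1.23 ± 0.51, did not pass (adjusted p = 0.575). The clock output gene CCL differed by 0.49 (adjusted p = 0.839), and the morning MYB genes AT4G01280 (listed as RVE5) and AT5G52660 (listed as RVE6) by 0.21 and 0.11.

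Genes that go with hypocotyl growth did not pass the test at dark 280 min, and several did at dark 1240 min, when CCA1OX was labelled growing and Col not. IAA29, an auxin-responsive Aux/IAA repressor gene and shade marker, stood at 6.79, 4.61, 8.66, 7.70, 8.23 and 8.59 in CCA1OX, against 7.55, 8.12, 4.07, 4.08, 7.63 and 7.07 in Col. Most arrays of each line were between 6.79 and 8.66, and the low ones were CCA1OX replicate 2 and Col replicates 3 and 4, which are the arrays that stood apart above. The difference was 1.01 ± 0.69 (adjusted p = 0.807). It was 0.54 without Col replicate 3 or without Col replicate 4, and 1.57 without CCA1OX replicate 2, and passed in none of these. At dark 1240 min IAA29 averaged 8.32 ± 0.19 in CCA1OX and 4.71 ± 1.23 in Col (SD, n = 5 each), a change of 3.61 (adjusted p = 0.0072).

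All 4 measured shade markers, of 10 on the list, passed the test as higher at dark 1240 min (IAA29, HAT2, FHL and AT1G69570). There 0.58% of all probe sets were called higher. None of the 4 passed at dark 280 min. The lists were chosen with earlier results of these data known, so these shares describe the markers and are no test of them. The median change of the 4 markers was 0.62 at dark 280 min and 1.88 at dark 1240 min, against -0.0022 and -0.0078 over all probe sets. HAT2, a homeodomain factor gene induced by auxin, averaged 7.85 ± 0.57 in CCA1OX and 7.71 ± 0.63 in Col at dark 280 min (SD, n = 6 each). AT1G69570, listed as CDF5 and encoding a DOF factor that cycles with the day, averaged 5.74 ± 0.51 in CCA1OX and 5.17 ± 0.58 in Col. The test of the line difference at dark 280 against dark 1240 min gave -1.98 ± 0.41 for AT1G69570 (adjusted p = 0.164), -1.07 ± 0.39 for HAT2 (adjusted p = 1) and -2.60 ± 1.03 for IAA29 (adjusted p = 1). None of these passed, so the line difference of these genes was not shown to differ between the 2 dark times.

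WES1 and GH3.3 encode enzymes that attach amino acids to auxin and so lower its active level. WES1 had 9.06, 7.98, 8.95, 8.73, 9.01 and 9.00 in CCA1OX, against 8.61, 9.05, 8.96, 7.86, 8.68 and 8.43 in Col, a difference of 0.19 ± 0.22 (adjusted p = 0.915). At dark 1240 min it was higher in CCA1OX by 1.74 (adjusted p = 1.71e-05), and the 2 differences differed by -1.55 ± 0.33 (adjusted p = 0.164). GH3.3 had 7.40, 4.77, 6.12, 8.28, 7.25 and 6.84 in CCA1OX, against 8.06, 8.48, 7.20, 7.95, 8.76 and 7.77 in Col. It was lower in CCA1OX in 5 of 6 pairs, with a change of -1.26 ± 0.38 that did not pass (adjusted p = 0.295). CCA1OX replicate 2 was the lowest array of its line for both genes. In pif4 pil5 at dark 280 min WES1 averaged 7.08 ± 0.25 and GH3.3 6.41 ± 0.35 (SD, n = 6 each).

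**Figure D3:**
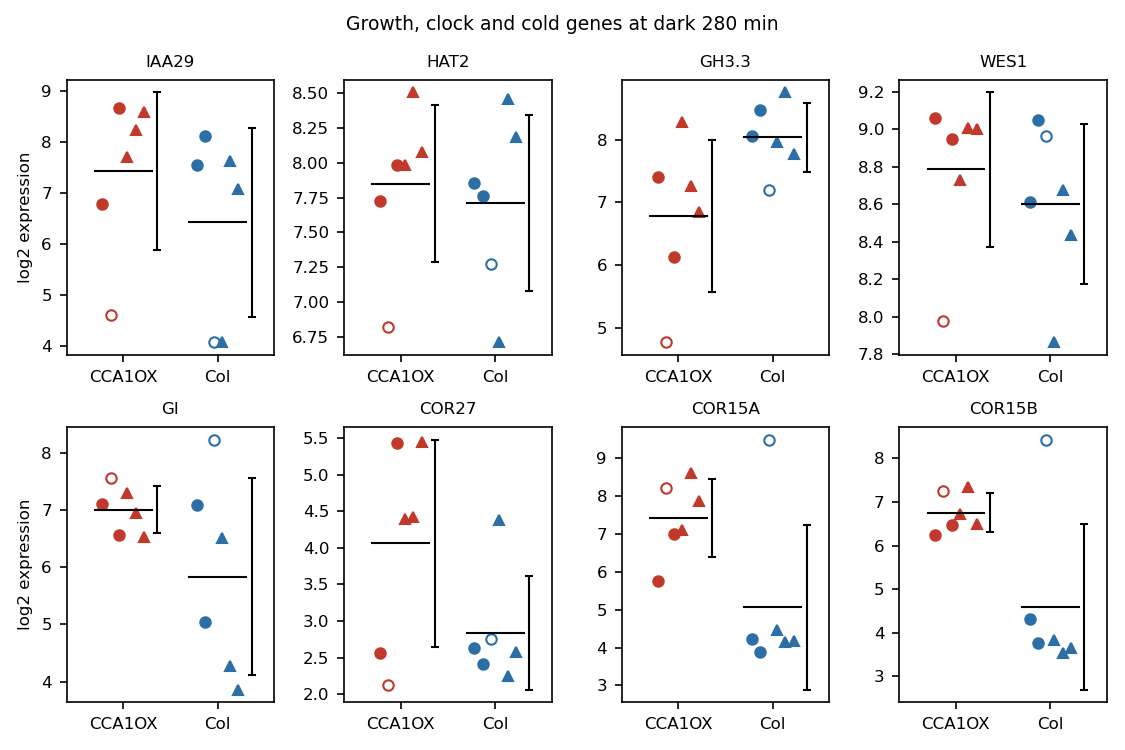
Log2 expression (vertical axes, each panel on its own scale) of 8 growth, clock and cold genes in the 6 CCA1OX arrays (left) and the 6 Col arrays (right) at dark 280 min, with symbols, lines and bars as in the plot of called genes. None passed the test. COR15A and COR15B are low in every Col array but replicate 3, at 9.48 and 8.43, and IAA29 is near 4 in Col replicates 3 and 4.

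Of 14 measured genes on the list of expansins and xyloglucan endotransglucosylases, which loosen the cell wall, none passed the test at dark 280 min. Among all probe sets 0.123% passed there. The median change of the 14 genes was 0.14 and the range ran from -0.74 for EXLB1 to 0.78 for EXPB3. The root hair expansins EXPA7 and EXPA18 stand among the root markers, not on this list, and are described with them. EXPA4 and EXPA8 were higher in 6 of 6 pairs (2 of 14, where 2.49% of all probe sets were), by 0.28 and 0.65. At dark 1240 min 2 of the 14, EXLA2 and EXLA3, were called higher, where 0.58% of all probe sets were. The 4 measured genes of gibberellin perception, GID1A, GID1B, GID1C and SLY1, differed by 0.06 to 0.21, and the 5 measured Aux/IAA genes had a median of 0.20.

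COR15A and COR15B, which encode chloroplast proteins that protect membranes in the cold, showed wide differences whose test turned on 1 Col array. COR15A stood at 5.76, 8.20, 6.99, 7.10, 8.60 and 7.87 in CCA1OX, against 4.24, 3.88, 9.48, 4.46, 4.13 and 4.16 in Col. COR15B stood at 6.24, 7.25, 6.47, 6.73, 7.35 and 6.48 in CCA1OX, against 4.31, 3.77, 8.43, 3.84, 3.55 and 3.65 in Col. For both, every CCA1OX array lay above 5 Col arrays, and Col replicate 3 lay above all. That array had high HYH, and AT3G52740 at the level of the light groups. The changes were 2.36 ± 0.80 (adjusted p = 0.384) and 2.16 ± 0.63 (adjusted p = 0.257). Without Col replicate 3 they were 3.25 (adjusted p = 0.0357) and 2.93 (adjusted p = 0.00643), so the calls depend on that array. At the other 3 times neither passed, with changes between 1.66 and 3.21 for COR15A and between 1.80 and 2.83 for COR15B. The dehydrin genes COR47 and LTI30, also on the list of cold-regulated genes, differed by 0.52 and 0.46 and did not pass.

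PWD, a kinase that phosphorylates starch for its breakdown, stood at 7.87, 8.08, 8.26, 8.56, 8.41 and 8.47 in CCA1OX, against 7.20, 6.89, 8.14, 7.81, 7.46 and 7.40 in Col. It was higher in 6 of 6 pairs by 0.79 ± 0.21, which did not pass (adjusted p = 0.158, or 0.0536 with the block and 0.0301 with 45 arrays). DPE1, an enzyme that rearranges short glucan chains from starch, was higher in 6 of 6 pairs by 0.23. The sugar starvation gene AT3G15450 and the starch synthesis gene APL3 differed by 0.61 and -0.04.

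No measured light-harvesting, light-signalling, flavonoid or chlorophyll synthesis gene passed the test. With 0.123% of all probe sets passing, a lack of calls says little for so few genes. The 4 measured light-harvesting and Rubisco genes had a median change of 0.25 with all 12 arrays, and that of RCA, 0.20, was -0.066 without Col replicate 4. In the flavonoid pathway DFR, a reductase on the route to anthocyanin, had 8.45, 8.88, 6.12, 7.91, 6.48 and 5.05 in CCA1OX, against 6.54, 4.06, 7.24, 8.06, 7.56 and 5.76 in Col. The first time course had it higher in CCA1OX in 2 of 3 pairs and the second lower in 3 of 3, and the difference was 0.61 ± 0.72 (adjusted p = 0.913). The 4 measured chlorophyll synthesis genes ran from -0.39 for GSA1 to 0.20 for CHLM, and the single defence gene measured, PDF1.2, differed by -0.13.

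Of the gene families counted by symbol, no UDP-glycosyltransferase (UGT, 47 genes), cytochrome P450 (CYP, 26), plant U-box (PUB, 9), WRKY (6) or autophagy ATG8 (7) gene passed. Among all probe sets 0.123% passed, so a lack of calls in families of these sizes says little about them. The extremes were UGT74D1 at -0.48 and UGT85A5 at 0.38, CYP71B26 at -0.71 and CYP84A4 at 0.24, PUB22 at -0.19 and PUB19 at 0.89, WRKY47 at -0.34 and WRKY20 at 0.03, and ATG8H at -0.09 and ATG8C at 0.26. The median of each family lay within 0.2 of 0.

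The root hair expansin genes EXPA7 and EXPA18, markers of another tissue, were lower in CCA1OX in 6 of 6 pairs. EXPA7 had 5.95, 5.15, 4.97, 5.57, 4.64 and 3.94 in CCA1OX, against 6.23, 6.13, 5.44, 5.71, 5.84 and 5.42 in Col. EXPA18 had 6.27, 5.83, 5.68, 6.12, 5.32 and 4.31 in CCA1OX, against 6.96, 6.79, 5.70, 6.46, 6.32 and 6.29 in Col. The group ranges overlapped, and the changes of -0.76 ± 0.35 and -0.83 ± 0.35 did not pass (adjusted p = 0.646 and 0.579). Among all probe sets 2.99% were lower in 6 of 6 pairs. PYK10 differed by 0.07 (adjusted p = 0.949), and the part of root hair cells in the called differences was not tested.

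**Figure D4:**
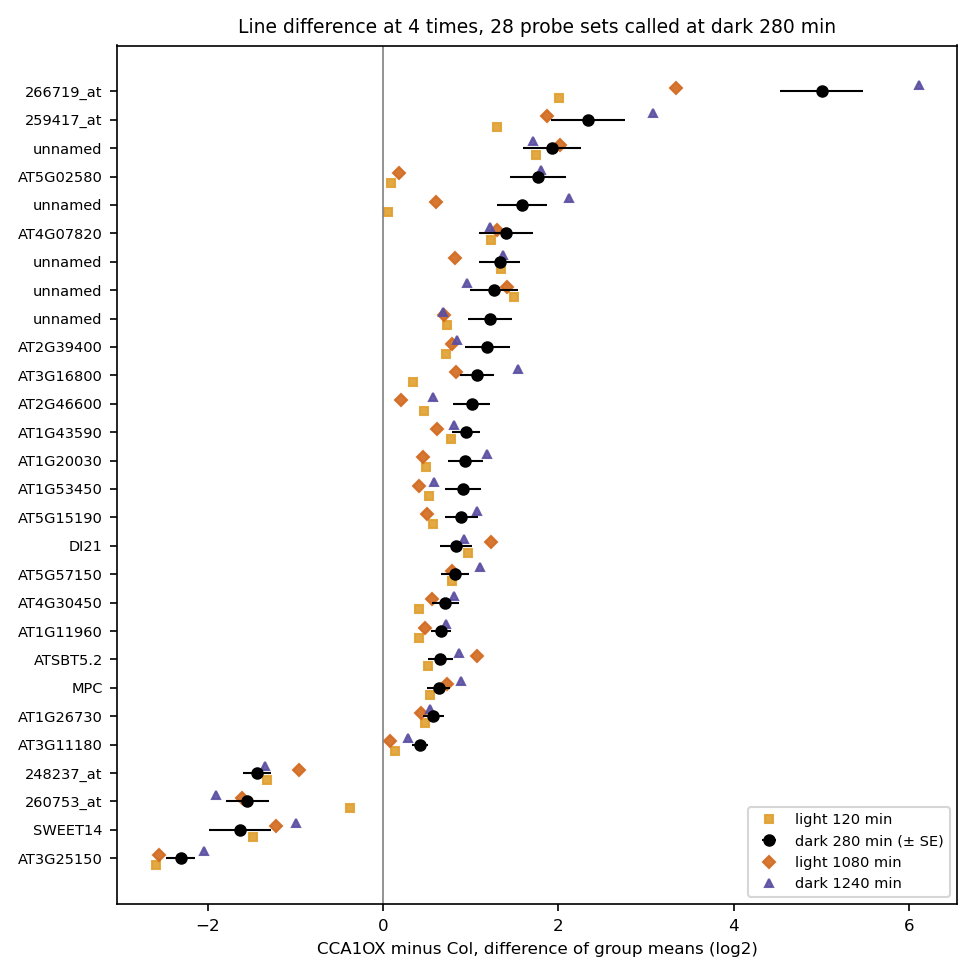
Difference of group means, CCA1OX minus Col (log2, horizontal axis), of the 28 probe sets called at dark 280 min (rows), at that time (black, with SE) and at the other 3 times. All points lie on the same side of 0 within a row, and AT5G02580 lies near 0 at both light times and near 1.8 at both dark times.

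The line was also set against Col at each of the other 3 times, with arrays that dark 280 min does not share. At light 120 min 56 probe sets were called (0.246%), 35 higher (0.154%) and 21 lower (0.0923%). At light 1080 min 35 were called (0.154%), 24 higher (0.106%) and 11 lower (0.0484%). At dark 1240 min 141 were called (0.62%), 132 higher (0.58%) and 9 lower (0.0396%). Shared with dark 280 min were 8 at light 120 min (28.6% of the 28 and 14.3% of the 56), 10 at light 1080 min (35.7% and 28.6%) and 20 at dark 1240 min (71.4% and 14.2%). All 28 had the same sign at each other time, where 65.5%, 62.3% and 64.9% of all probe sets had the same sign as at dark 280 min. Their median change in the direction of dark 280 min was 0.64 at light 120, 0.79 at light 1080 and 1.03 at dark 1240 min, and 24, 21 and 13 of the 28 were smaller there.

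At all 4 times 5 probe sets were called, AT3G25150 and 248237_at as lower, and AT5G57150, DI21 and 1 unnamed probe set as higher. At dark 280 min and no other time 7 were called, SWEET14, AT3G11180, AT1G53450, AT2G46600, AT2G39400, AT4G07820 and 1 unnamed probe set. Missing a threshold elsewhere does not show a difference between times. The test of that difference, dark 280 min against the mean of the other 3 times in limma, called 0 probe sets (0.0%), with 458 at an unadjusted p under 0.05. Against dark 1240 min alone it called 0, with 381 at an unadjusted p under 0.05 and a lowest adjusted p of 0.164. No line difference was therefore shown to be particular to dark 280 min.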

How the data were processed

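The deposited values are log2 expression made by the authors with RMA from the affy package, per the submitters' processing notes, with no version given. Of 22810 probe sets, 64 controls were left out. A partial platform table, updated through RefSeq, gave 13513 probe sets a single gene, and 8730 were not in it. Values ran from 1.24 to 13.1, no arrays were identical (0), and array medians of the 12 arrays lay between 4.59 and 4.80. Arrays give no counts, so their number limits the precision.

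With limma 3.58.1 (R 4.3.3), 9 group means were fitted over 48 arrays (39 residual degrees of freedom, median residual SD 0.244). Contrasts were tested two-sided, with Benjamini-Hochberg adjustment over 22746 probe sets at a threshold of 0.05. This fit had no term for day, time course or array batch. Its p-values thus measure a spread between pooled samples that includes differences between days, time courses and array batches. Per the labels, arrays of both lines share a time course and day. Residuals correlated by 0.297 within such pairs, 0.0781 within a time course on other days and -0.158 between time courses. The 6 pairs at dark 280 min gave 0.49, 0.01, -0.02, 0.43, 0.12 and 0.45. The block, time course and day, was fitted on the 42 arrays of these lines, so each block also held arrays of other times. On simulated data the script was tested for recovery of known changes.

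Named are the 12 highest and 12 lowest called single-gene probe sets, 2 unnamed IDs each way, up to 4 called members of each list or else the member with the largest change, and the extremes of families. Other list members were named after their values were seen, as were the genes added by the block. The members and lists were chosen with earlier results of these data known. Sequences and promoters were not used here. Lists with no named member were those of phytochrome-interacting factors, brassinosteroid and nitrate genes, and of seed and flower markers. Alternatives were other blocks, each campaign alone, other normalizations, a filter on dim probe sets, variance priors, array weights and each array of these lines left out. Chosen after seeing the data were RNA quality covariates (3' minus 5' signal of actin and GAPDH) and the block with 12 or 45 arrays. The fit on 45 arrays was set beforehand. No label picks out the arrays it leaves out, so it was not chosen blind to measured values.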

Additional observations from a re-analysis of the deposited data

Results flagged for a closer look

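In 61 of the probe sets named in the text or drawn on by it, 14 of 122 groups of 6 arrays held an array far from the other 5. Chance gives about 1 in 20 groups where the groups are independent. These groups share the same 12 arrays, and some genes were named after their values were seen. The count is therefore no test against that rate. AT3G52740, given above, was not among the 61. CCA1OX replicate 2 was far from the other 5 arrays for HYH (5.76), AT5G02580 (3.79) and WES1 (7.98). CCA1OX replicate 4 was so for SWEET14 (4.55), SWEET16 (4.40) and the peroxidase gene AT2G41480 (3.59), and CCA1OX replicate 5 for DI21 (7.78). Col replicate 3 was so for COR15A (9.48), COR15B (8.43) and AT3G11180 (1.88). Col replicate 4 was so for RCA (10.96), LHCB4.2 (10.01) and COR27 (4.38), and Col replicate 6 for AT3G25150 (7.67). Of the 61 probe sets none (0) moved one way in every pair at dark 280 min and the opposite way in every pair at another time.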

How the results depend on the processing

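Against 28 calls at dark 280 min, 82 were made with array weights, 83 with a block for array batch and 86 with the replicate block (time course and day). The replicate block with 45 arrays gave 135, 45 arrays without it 43, campaign 2 alone 45, campaign 1 alone 5, median centring 15, the 12 arrays alone 4, and these with the block 5. With 1 of the 12 arrays left out the count ran from 14 to 37, and it was 39 without Col light 1080 replicate 3. The share of higher calls was 85.7% in the full fit, against 73.3% with median centring, 80.0% with quantile normalization repeated, 75.6% with the replicate block, 93.0% with 45 arrays and 60.0% in campaign 1 alone. With the 12 arrays alone it was 25.0%, and 20.0% with the block, so there most calls were lower. Of the 28, 12 kept their call whichever single array was left out, and 3 under all 15 other alternatives, AT3G25150 and the unnamed 248237_at and 266719_at. The test against the other 3 times called 0 under every alternative run, the replicate block among them, and over 42 arrays the block ended none of the 28 calls. It was run for these results alone. Of the 61 probe sets rerun under every alternative, 5 turned in sign, none of them called: HYH (0.054 in campaign 1; -0.92 to 0.016 without single arrays), RCA (-0.039 in campaign 1; -0.066 to 0.27), HAT2 (-0.12 in campaign 1; -0.056 to 0.35), WES1 (-0.21 in campaign 1) and DFR (-0.65 in campaign 2). Of other genes named, none called, CCL, GID1C, SLY1, EXLA2, EXLA3, WRKY20 and ATG8H turned in campaign 1 alone, PYK10 in campaign 2 alone, and APL3 there and with 45 arrays. The cause of these shifts was not tested. Of the 28, 20 had a mean level of at least 4.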
